A study of Mus musculus with 26 samples.

Results

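The mice of this study carry running numbers with a gap, and the livers compared here are those of the 11 mice numbered 619 and up (the second run) against those of the 15 mice numbered up to 616 (the first run), 26 of 26 samples in all. All 26 were C57BL/6 mice given benoxacor, a herbicide safener, by oral gavage on 3 consecutive days at 0, 0.5, 5 or 50 mg/kg, and liver was taken 24 hours after the last gavage. Per the labels, mice were acclimatised from 4 to 8 weeks and their bedding was mixed to even out the microbiome. In the second run 1 mouse received 0 mg/kg, 2 received 0.5 mg/kg, 4 received 5 mg/kg and 4 received 50 mg/kg. In the first run 4 mice received 0 mg/kg, 3 received 0.5 mg/kg, 4 received 5 mg/kg and 4 received 50 mg/kg. The numbers rise with the dose within each run, and the labels used here give no hour, date, cage or sequencing batch for either run, so what separates the runs beyond the numbers cannot be told from them. The sex of the mice is not among these labels. No label says that the mice were handled independently, so the p-values below measure the spread between these livers.

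RNA was sequenced and deposited as read counts for 54532 genes, with between 5433074 and 9088626 reads per liver (median 7105531). The difference in total counts did not pass the test (7769000 ± 1123000 in the second run and 7088000 ± 752500 in the first; SD, n = 11 and 15; two-sided exact permutation test within doses, p = 0.0922, adjusted p = 0.255 over 7 library measures), and none of the 7 measures passed the test. Mitochondrial transcripts made up 5.12 ± 1.48% of counts in the second run and 6.16 ± 1.497% in the first (adjusted p = 0.271, same exact permutation test, SD, n = 11 and 15).

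The genes that separated the runs included parts of the circadian clock. In this clock, which runs in hepatocytes as in most cells, the proteins encoded by Arntl (BMAL1) pair with those of Clock or Npas2 and switch on genes that carry E-boxes, among them the Per and Cry genes, whose products then shut the pair down. Another loop runs through the nuclear receptors: Nr1d1 and Nr1d2 (REV-ERBs) repress Arntl and Npas2 through response elements called ROREs. Dbp, Tef and Hlf act on D-boxes, where Nfil3 opposes them, so that in mouse liver Arntl and Npas2 transcripts are known to be high at the time of day when most Per, Dbp and REV-ERB transcripts are low. The promoter windows of 4 clock genes whose levels are given per mouse below are shown because they hold these elements. Each runs 5′ to 3′ over 300 bases around a gene's start, in lower case with the motif in capitals, from RefSeq windows on GRCm38.p6 (mm10).
Arntl, the BMAL1 gene, chr7:113207261-113207560, plus strand, with a RORE (AGTAGGTCA) in capitals: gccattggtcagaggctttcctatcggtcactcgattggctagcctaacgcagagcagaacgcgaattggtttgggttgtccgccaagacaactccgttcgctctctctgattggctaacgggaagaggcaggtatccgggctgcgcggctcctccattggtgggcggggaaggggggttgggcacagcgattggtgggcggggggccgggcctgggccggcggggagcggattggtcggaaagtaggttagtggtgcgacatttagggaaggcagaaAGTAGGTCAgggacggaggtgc
Per1, a repressor, chr11:69098699-69098998, plus strand, with an E-box (CACGTG) in capitals: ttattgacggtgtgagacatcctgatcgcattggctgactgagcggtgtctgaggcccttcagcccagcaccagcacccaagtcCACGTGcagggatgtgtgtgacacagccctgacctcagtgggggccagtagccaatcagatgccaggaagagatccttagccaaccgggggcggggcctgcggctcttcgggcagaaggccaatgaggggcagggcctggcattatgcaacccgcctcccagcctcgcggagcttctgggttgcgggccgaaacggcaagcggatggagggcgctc
Per3, a repressor, chr4:151044616-151044915, minus strand, with D-boxes (TTATGTAA) in capitals: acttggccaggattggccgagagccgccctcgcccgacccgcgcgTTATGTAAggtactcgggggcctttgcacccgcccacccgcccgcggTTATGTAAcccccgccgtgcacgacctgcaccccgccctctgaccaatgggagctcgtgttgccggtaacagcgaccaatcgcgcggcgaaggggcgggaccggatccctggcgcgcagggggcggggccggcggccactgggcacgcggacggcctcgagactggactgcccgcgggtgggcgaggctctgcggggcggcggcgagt
Ciart, a repressor also called CHRONO, chr3:95882179-95882478, minus strand, with E-boxes (CACGTG) in capitals: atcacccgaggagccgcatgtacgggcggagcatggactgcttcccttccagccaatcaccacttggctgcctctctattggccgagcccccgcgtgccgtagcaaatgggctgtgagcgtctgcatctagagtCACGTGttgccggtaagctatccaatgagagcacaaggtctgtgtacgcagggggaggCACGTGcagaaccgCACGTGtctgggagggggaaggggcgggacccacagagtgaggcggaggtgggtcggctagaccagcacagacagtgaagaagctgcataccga
The Per3 window held 2 D-boxes of this form and the Ciart window 3 E-boxes. Motifs were searched on both strands in all 32851 windows: CACGTG was in 7.15% of them, TTATGTAA in 0.938%, TTACGTAA in 0.119%, AGTAGGTCA in 0.192% and the shorter TAGGTCA, which lies within it, in 2.61%. The heat shock element was in 0.603%, the CRE TGACGTCA in 1.79%, and the glucocorticoid response element in 0.00913%. Of the 22 genes in the clock lists described below, 18 had a window. Counted by gene, 5 held the E-box, 2 the RORE (Arntl and Nfil3) and 1 the D-box (Per3). Counted by window, as the shares above are, 6 of their 23 windows held the E-box, 2 the RORE and 1 the D-box. Of the 8 genes called over all 26 mice, 7 had a window and none held any of these motifs. A match describes letters in a window and is not a binding site.

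Before the results, 2 libraries of the second run need to be set apart. Mouse 628 (5 mg/kg) held transcripts of other tissues: the summed level of 13 adrenal cortex and steroid-producing cell markers was 4419 CPM (counts scaled to a common library size by TMM) there, against at most 296.5 CPM in any other liver. In it Cyp11a1 and Nr5a1, defining genes of steroid-producing cells, stood at 478 and 25.1 CPM, and both were at 0 in every other library. Its pancreas acinar markers summed to 176 CPM, against at most 33.2 CPM elsewhere, and its lymphocyte markers to 190 CPM, against at most 24.3 CPM. Mouse 626 (5 mg/kg) had adipocyte markers at 667 CPM and mouse 628 at 1137 CPM, against at most 85.1 CPM in the other 24; Adipoq stood at 42.6 and 98.99 CPM in these 2 livers and at 0 in 17 of the other 24. Mouse 626 also had the lowest summed male-biased liver genes of the 26, at 16450 CPM, with mouse 612 next at 42150 CPM. Its share of counts in major urinary protein (Mup) genes was the lowest too, at 0.649%, with mouse 624 next at 2.99%. The cause was not tested. In the first run, mouse 606 (0.5 mg/kg) had the highest summed acute phase genes of the 26 (84940 CPM). Hepatocyte markers summed to between 73740 and 160300 CPM in the second run and between 67220 and 145300 CPM in the first. Fewer cells of a type and less RNA per cell cannot be told apart in such bulk samples.

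**Figure D1:**
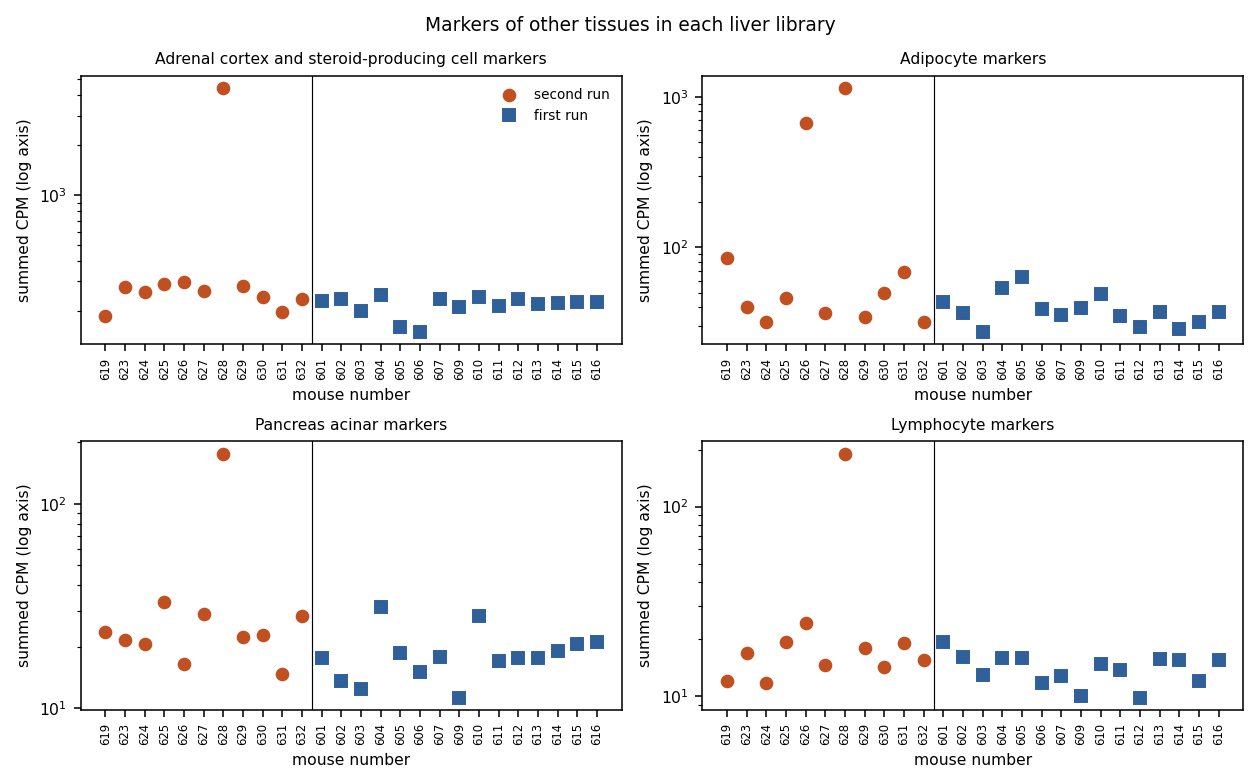
Summed CPM (log axis) of marker genes of 4 other tissues or cell types in each of the 26 liver libraries, one point per mouse, second run on the left of each panel. Mouse 628 stands alone for adrenal, pancreas and lymphocyte markers (4419, 176 and 190 CPM), and mice 626 and 628 for adipocyte markers (667 and 1137 CPM).

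Across all 26 livers, with dose as 4 levels in the fit, 8 of 16875 expressed genes differed between the runs (0.0474%; edgeR quasi-likelihood test, Benjamini-Hochberg adjusted p under 0.05), 6 higher in the second run (0.0356%) and 2 lower (0.0119%). Higher were Npas2, Chka, Gm16066, Zbtb16, Clpx and Lgalsl, and lower were Noct and Crybg2. At an unadjusted p under 0.05 there were 1503 genes, where 844 would be expected if no gene differed. The median log2 fold change over all 16875 genes was 0.03, with 56.8% of them positive. Leaving out 1 mouse moved the count of 8 calls to between 1 (without mouse 612) and 51 (without mouse 631): it was 48 without 604, 14 to 24 without 614, 616, 619, 624, 625, 627, 628 or 629, and 2 to 5 without 610, 611, 613, 623, 626 or 630. Without mice 626 and 628 together it was 11, of which 5 were among the 8.

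Npas2, the partner of BMAL1 that can take the place of CLOCK, showed the biggest fold of the 8. Its level ran over 0.137, 3.50 and 5.77 CPM (lowest, median, highest) in the second run and over 0, 0.148 and 1.66 CPM in the first. In the 5 mg/kg mice it was 4.67, 3.38, 4.33 and 5.77 CPM in the second run and 0.342, 0, 0 and 0.134 CPM in the first. In the 50 mg/kg mice it was 0.137, 3.50, 0.140 and 4.61 CPM in the second run and 0, 0.148, 0.440 and 0.161 CPM in the first. The runs were apart at 5 mg/kg, whereas at 50 mg/kg mice 629 and 631 lay among the first-run values, and the highest first-run liver was mouse 604 (0 mg/kg). These levels rest on few reads, with 1, 25 and 55 reads (lowest, median, highest) in the second run and 0, 1 and 12 in the first, where 4 of 15 mice had none. The fitted log2 fold change was 3.47 ± 0.58 (SE; edgeR adjusted p = 0.0176). The gene lies on chr1:39193731-39363236 (mm10, GENCODE M21).

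Chka encodes choline kinase alpha, the first step from choline to phosphatidylcholine. It ranged over 40.1, 138 and 226 CPM in the second run and over 29.6, 56.0 and 125 CPM in the first, a log2 fold change of 1.299 ± 0.224 (SE; edgeR adjusted p = 0.0200). At 5 mg/kg it was 226, 163, 163 and 99.3 CPM in the second run against 61.2, 29.6, 46.8 and 42.5 CPM in the first, with no overlap, as was so at this dose for 5.55% of the 16875 genes. At 50 mg/kg the values were 40.1, 143, 121 and 117 CPM in the second run against 56.0, 34.4, 40.4 and 49.3 CPM in the first, and mouse 629 fell within the first run's range. Gm16066, an annotated antisense gene at chr19:3798615-3852419, overlaps the start of Chka at chr19:3851773-3894369. It ranged over 2.09, 4.33 and 9.47 CPM in the second run and over 0.406, 1.76 and 4.97 CPM in the first (log2 fold change 1.46 ± 0.26 (SE), edgeR adjusted p = 0.0205). It shares 74 of its 1086 exonic bases with Chka and 927 with Kmt5b, which had a log2 fold change of 0.04 (edgeR adjusted p = 0.94). Whether reads were counted by strand is not given in the sources used here, so the reads of Gm16066 and of these partners cannot be told apart where they overlap.

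Clpx encodes the unfolding subunit of the mitochondrial ClpXP protease and lies at chr9:65294260-65330658. Its level was 401, 309, 363 and 315 CPM in the second-run mice at 5 mg/kg and 123, 108, 122 and 119 CPM in the first-run mice, without overlap. At 50 mg/kg it was 128, 262, 173 and 346 CPM in the second run and 98.1, 108, 160 and 195 CPM in the first, with overlap. Over all mice it ranged over 128, 309 and 401 CPM in the second run and over 98.1, 122 and 250 CPM in the first (log2 fold change 0.94 ± 0.18 (SE), edgeR adjusted p = 0.0301). The 250 CPM is again mouse 604. Lgalsl, which encodes a galectin-like protein (chr11:20823576-20831056), had the smallest fold and the smallest p of the 8. It ranged over 18.4, 25.3 and 41.4 CPM in the second run and over 11.4, 15.97 and 19.5 CPM in the first, with 10 of 11 second-run mice above the highest first-run mouse (log2 fold change 0.73 ± 0.12 (SE), edgeR adjusted p = 0.0173). It was the 1 gene of the 8 whose call at 0.05 held in all 39 alternative fits compared, including each mouse left out in turn. The stricter threshold of 0.01 is not among these 39, and none of the 8 passed it. At 0.5 mg/kg, however, it was 20.37 and 18.39 CPM in the second run and 18.8, 19.53 and 18.57 CPM in the first, with overlap (log2 fold change 0.03, unadjusted p = 0.887 from edgeR).

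Zbtb16 encodes PLZF, a transcription factor that glucocorticoids induce in many cells (chr9:48654297-48836222). It ranged over 8.50, 18.5 and 53.8 CPM in the second run and over 5.39, 9.58 and 28.4 CPM in the first (log2 fold change 1.01 ± 0.18 (SE), edgeR adjusted p = 0.0200). The 4 and 4 mice at 50 mg/kg did not overlap, at 19.8, 15.4, 12.6 and 9.60 CPM in the second run and 5.39, 6.05, 8.51 and 7.22 CPM in the first. Such separation at 50 mg/kg occurred in 1.79% of the 16875 genes. At 5 mg/kg mouse 626 (8.50 CPM) lay among the first-run values. Without mice 626 and 628 the edgeR adjusted p was 0.00316. The call was lost when the fit held no dose term, and 22 of the 26 fits that left out 1 mouse kept it. Across 39 alternative fits the log2 fold change of Zbtb16 lay between 0.697 and 1.13.

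Noct, or nocturnin, a rhythmically expressed phosphatase that acts on NADP(H) (chr3:51224447-51251644), was lower in the second run. It ranged over 5.84, 9.68 and 17.4 CPM there and over 9.80, 26.9 and 38.0 CPM in the first run (log2 fold change -1.23 ± 0.22 (SE), edgeR adjusted p = 0.0259). At 5 mg/kg it was 5.84, 7.88, 8.81 and 12.6 CPM in the second run and 15.4, 37.2, 30.9 and 36.6 CPM in the first, without overlap. The 50 mg/kg mice overlapped, at 8.28 to 17.4 CPM in the second run and 10.5 to 37.98 CPM in the first. Crybg2 (chr4:134060815-134092504) ranged over 0.750, 2.80 and 8.98 CPM in the second run and over 3.10, 6.14 and 13.1 CPM in the first (log2 fold change -1.24 ± 0.25 (SE), edgeR adjusted p = 0.0481). It was the closest of the 8 to the threshold, and 11 of the 26 fits that left out 1 mouse still called it.

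**Figure D2:**
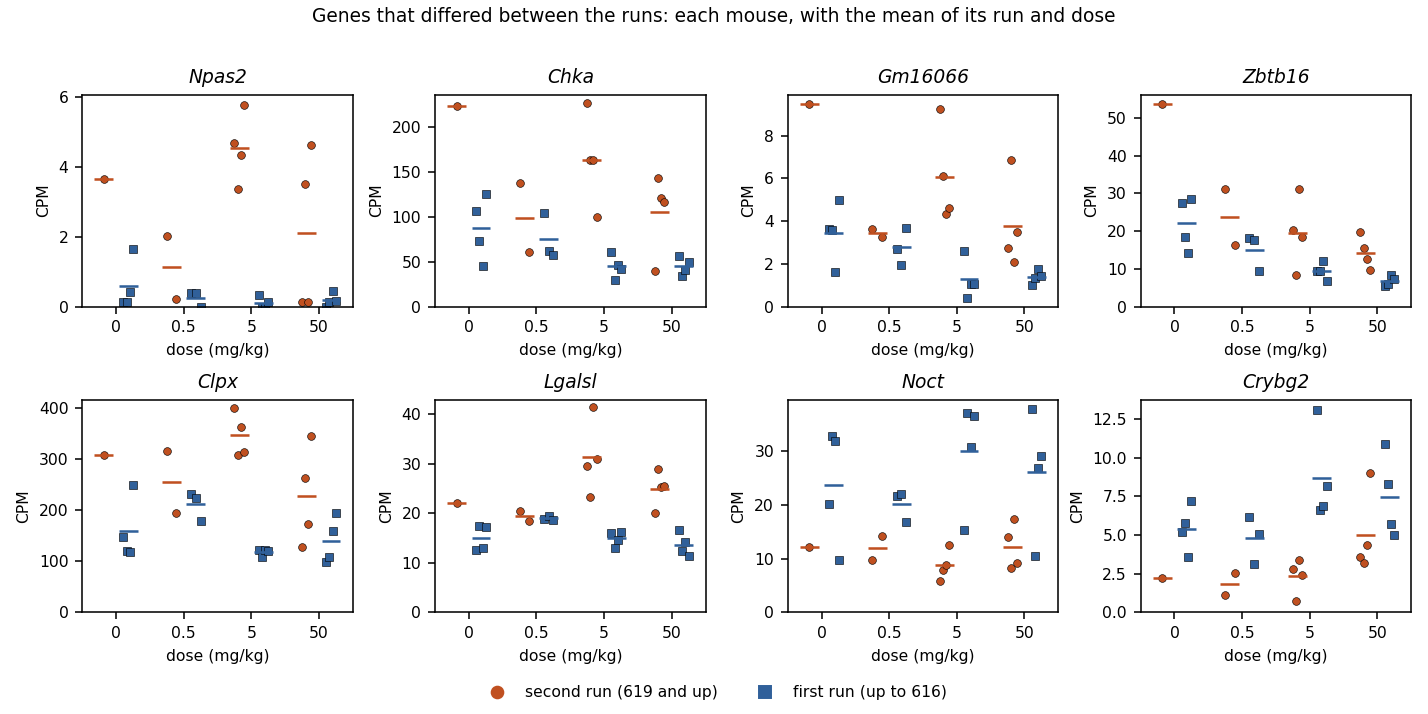
CPM of the 8 genes that passed the 26-mouse test, by dose in mg/kg, with one point per mouse and a bar at the mean of each run and dose, second run (circles) left of first run (squares). In the Npas2 panel the 4 second-run mice at 5 mg/kg lie between 3.38 and 5.77 CPM and all 4 first-run mice at or below 0.342 CPM, while 2 second-run mice at 50 mg/kg lie near 0.14 CPM.

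The difference was not even across the second run. For each mouse, the number of these 8 genes that lay beyond every mouse of the other run, on the side of the run's difference, was counted as a description. It was 7 in mice 619, 623, 625 and 626, 6 in mice 627 and 630, 4 in mice 628 and 632, and 1 in mice 624, 629 and 631. In the first run the count went from 1 in mice 604, 605 and 607 to 7 in mouse 613. Since the 8 genes were picked for their difference, these counts describe the livers and test nothing.

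Of 13 repressors and genes that peak with them, 12 had a negative log2 fold change and none passed the test across all genes, with a median of -0.70 beside 0.03 over all 16875 genes. At an unadjusted p under 0.05, 11 of the 13 were lower and 1 higher, where 593 and 910 of all 16875 genes were. Of 9 activators and genes that peak with them, 7 were positive and 1 passed (Npas2), where 0.0474% of all genes did, with a median of 0.08. Both lists were drawn up with earlier results of these data known. The summed level of the 13 repressor-list genes was 383, 628 and 991 CPM (lowest, median, highest) in the second run and 593, 995 and 1330 CPM in the first. Without mice 626 and 628 the medians were -0.48 for the repressor list and 0.24 for the activator list. At 0.5 mg/kg, with 2 second-run and 3 first-run mice, 9 of the 13 repressor-list genes were positive (median 0.39, beside -0.03 over all genes), among them Nr1d1 (1.93) and Dbp (1.79). At 0 mg/kg, with 1 second-run mouse, all 13 were negative (median -0.89, beside -0.05), and no member passed the test at either dose.

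Among the activators, Arntl was 26.5, 24.3, 25.4 and 20.9 CPM in the second-run mice at 5 mg/kg against 4.90, 4.19, 5.25 and 6.05 CPM in the first-run mice. At 50 mg/kg it was 3.02, 19.3, 10.2 and 19.0 CPM in the second run against 3.97, 5.02, 9.39 and 6.90 CPM in the first. Mouse 629 held the lowest Arntl level of the 26 livers, while 8 of 11 second-run mice exceeded every first-run mouse. The log2 fold change was 1.302 ± 0.268 (SE; edgeR adjusted p = 0.0632), which missed the threshold. Clock, the usual partner of BMAL1, had a log2 fold change of 0.38 and Nfil3, the D-box repressor, 0.62 (edgeR adjusted p = 0.376 and 0.345). Cry1, Rora, E2f8 and Gys2, which encode a repressor, a RORE activator, a cell cycle factor and liver glycogen synthase, had log2 fold changes of 0.08, 0.06, 0.08 and -0.31.

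Among the repressors, Per1 ranged over 4.25, 10.98 and 15.3 CPM in the second run and over 7.04, 22.8 and 33.1 CPM in the first, where 12 of 15 mice exceeded every second-run mouse (log2 fold change -1.002 ± 0.227 (SE), edgeR adjusted p = 0.0776). The lowest first-run mouse was 604. Per3 ranged over 9.11, 21.2 and 72.7 CPM in the second run and over 27.5, 75.0 and 118 CPM in the first (-1.39 ± 0.33 (SE), edgeR adjusted p = 0.0946), and Per2 over 10.6, 28.9 and 90.1 CPM against 34.2, 62.0 and 115 CPM. In both, second-run mice 629 and 631 stood high, at 63.4 and 72.7 CPM for Per3 and 66.2 and 90.1 CPM for Per2. Ciart, which binds and blocks the BMAL1 complex, was 1.99, 0.875, 3.25 and 1.37 CPM in the second-run mice at 5 mg/kg and 15.97, 14.2, 10.6 and 14.4 CPM in the first-run mice. Usp2, a rhythmic deubiquitinase, had a log2 fold change of -1.12, Bhlhe40 and Bhlhe41, E-box repressors, of -0.70 and -0.73, and Nr1d2 of -0.48. The D-box activators Dbp, Tef and Hlf had -0.65, -0.57 and -0.26, and Cry2 -0.22. Nr1d1, the main REV-ERB gene of liver, was the 1 member with a positive value, 0.71, at 19.7, 54.7 and 118 CPM in the second run and 11.1, 41.9 and 120 CPM in the first. Its exons share 263 of 3077 bases with Thra on the other strand.

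**Figure D3:**
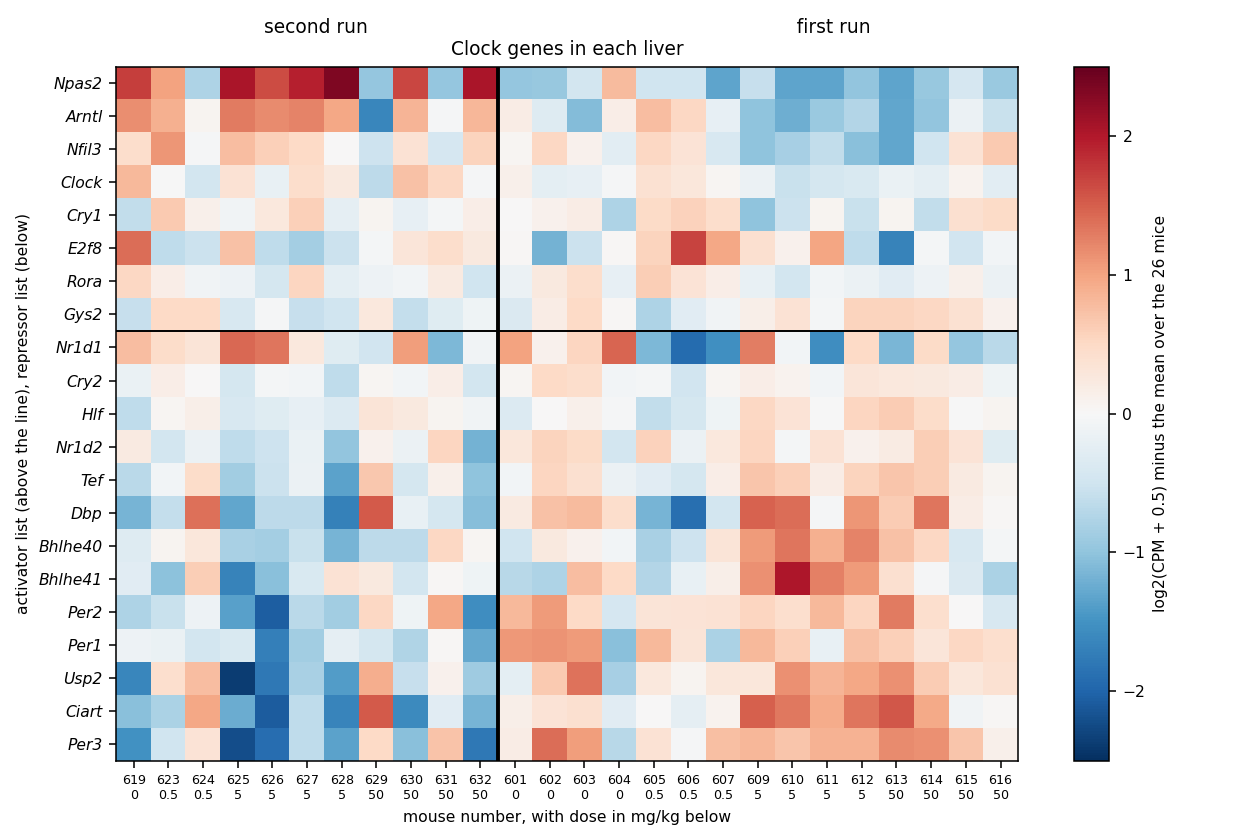
Level of 21 clock genes in each liver, as log2(CPM + 0.5) minus the gene's mean over the 26 mice, second run left of the black line, mouse number and dose (mg/kg) below. Npas2 and Arntl are above their means (red) and Per3 and Ciart below theirs (blue) in mice 619, 625, 626, 627, 628, 630 and 632. Mice 629 and 631, at 0.137 and 0.140 CPM of Npas2, are below its mean and above that of Per3.

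Taken alone, the 16 mice at 5 and 50 mg/kg gave 16 of 14222 genes (0.113%; edgeR adjusted p under 0.05), 8 higher and 8 lower in the second run (0.0563% each). Of the 8 genes above, 6 were among them, Chka, Clpx, Gm16066, Lgalsl, Noct and Npas2. The genes added were named after their values were seen. Arntl now passed (log2 fold change 1.65, edgeR adjusted p = 0.0494), as did Per1 (-1.14, edgeR adjusted p = 0.0440). Cdkn1a, which encodes the cell cycle inhibitor p21 and is a known clock output in liver, was 12.5, 10.6, 7.88 and 7.87 CPM in the second-run mice at 5 mg/kg and 1.71, 2.43, 0.749 and 1.48 CPM in the first-run mice. At 50 mg/kg Cdkn1a was 3.98, 6.21, 1.53 and 16.3 CPM in the second run and 1.28, 0.591, 0.440 and 2.09 CPM in the first, with mouse 631 inside the first run's range. Its log2 fold change over the 16 mice was 2.62 (edgeR adjusted p = 0.0109), and outside them mouse 604 of the first run reached 13.4 CPM. Zpr1, a zinc finger protein gene, was lower and showed no overlap at either dose: 58.9, 58.5, 67.1 and 46.4 CPM at 5 mg/kg and 56.6, 53.7, 54.1 and 57.2 CPM at 50 mg/kg in the second run. The first-run values of Zpr1 were 101, 97.2, 79.4 and 121 CPM at 5 mg/kg and 73.7, 108, 95.4 and 95.2 CPM at 50 mg/kg (log2 fold change -0.77, edgeR adjusted p = 0.00279).

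Also called in this fit were Ppp1r10, a regulatory subunit of protein phosphatase 1 (-1.03), Pitpnc1, a lipid transfer protein gene (-0.66), and Tkfc, the triokinase of fructose metabolism (-0.94). The antisense gene 0610040F04Rik (-1.27) shares 118 exonic bases with Bhlhe40, and Gm45819 (-2.38) lies just upstream of Wee1 on chr7. Of these 16 calls, 4 held without mice 626 and 628, where the fit called 6 genes. Leaving out mouse 629, 631 or 616 gave 87, 54 and 43 calls, and leaving out any other mouse but 615 gave 3 to 9.

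Within the 5 mg/kg mice, 47 of 16875 genes differed (0.279%; edgeR adjusted p under 0.05), 19 higher in the second run (0.113%) and 28 lower (0.166%). Within the 50 mg/kg mice none did, with 440 genes at an unadjusted p under 0.05, and DESeq2 called 1. Both comparisons came from 1 fit over all 26 mice. When the 8 mice at 5 mg/kg were fitted alone, 44 genes were called, 26 of them among the 47. Mice 626 and 628 are 2 of the 4 second-run mice at 5 mg/kg. All 47 genes kept their sign without them and 44 kept an unadjusted p under 0.05, but with 2 mice left the fit called 1 gene, Lgalsl (log2 fold change 1.24, edgeR adjusted p = 0.00754). Leaving out 1 mouse gave 8 calls without 626, 276 without 625 (218 higher and 58 lower), 340 without 627 (263 higher and 77 lower) and 17 to 26 without any of the other 5. The difference between the doses did not pass a test: the fit for the run effect at 50 minus that at 5 mg/kg called 0 of 14222 genes (0.00%; edgeR; 717 at an unadjusted p under 0.05, DESeq2 also 0).

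The genes named within the 5 mg/kg mice were chosen after their values were seen. Lower in the second run was Pklr, the liver pyruvate kinase, at 195, 64.8, 117 and 90.4 CPM against 843, 615, 453 and 519 CPM in the first run (log2 fold change -2.38, edgeR adjusted p = 0.00150). Bhlhe40 was 64.8, 63.4, 77.1 and 50.7 CPM in the second run against 238, 290, 213 and 270 CPM (-1.98, edgeR adjusted p = 0.00150). Hcn3, a cation channel gene, had -2.98, and 711 of its 4154 exonic bases overlap Pklr. Alas1, the rate-limiting enzyme of heme synthesis, was 124, 94.5, 64.9 and 103 CPM in the second run against 296, 815, 713 and 228 CPM in the first (-2.41, edgeR adjusted p = 0.0106). Wee1, a kinase that holds back mitosis and a known BMAL1 target, was 2.45, 3.25, 2.94 and 3.88 CPM against 16.1, 19.6, 14.7 and 16.9 CPM (-2.41, edgeR adjusted p = 0.0475). Usp2, Ciart, Tkfc, Coq10b, Klf10, Marveld1 and Pex26 were lower too, with log2 fold changes between -2.91 and -1.19.

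Higher in the second run at 5 mg/kg were Arntl (2.25, edgeR adjusted p = 0.0139), Insig2 and 17 more. Insig2, which holds the SREBP activator SCAP in the endoplasmic reticulum, was 269, 236, 330 and 287 CPM in the second run and 93.6, 153, 107 and 108 CPM in the first (log2 fold change 1.28, edgeR adjusted p = 0.0330). For other genes the fold was smaller without the libraries that stood apart. Fabp4 and Lpl, which are adipocyte markers, had log2 fold changes of 4.26 and 3.04 with mice 626 and 628 and of 0.22 and 0.60 without them. Slc1a3, a glutamate transporter gene with the largest fold of the 47, had 5.24 with them and 1.23 without (unadjusted p = 0.266 from edgeR). Pdk4, a switch from glucose to fat oxidation, had 4.02 and 1.63, Mmd2 2.11 and 1.03, and Abcc1, an export pump gene, 2.11 and 1.07. Scarb1, the HDL receptor gene and a member of the adrenal list, had 0.83 and 0.58.

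The 5 and 50 mg/kg comparisons share no mice, but both came from 1 fit over all 26 mice. Their p-values rest on the same estimate of each gene's spread. Of the 47 genes called at 5 mg/kg, 40 had the same sign at 50 mg/kg (85.1%), beside 50.4% of all 16875 genes, and 14 had it at an unadjusted p under 0.05, beside 286 of 16875. The genes were picked at 5 mg/kg, and all 47 had the larger absolute value there, with a median of 1.76 at 5 mg/kg and 0.474 at 50 mg/kg on the log2 scale. At 50 mg/kg Lgalsl had the smallest p of these (log2 fold change 0.87 ± 0.17 (SE), unadjusted p = 2.24e-05, edgeR adjusted p = 0.378). The second-run values there were 20.04, 29.0, 25.3 and 25.6 CPM against 16.6, 12.4, 14.1 and 11.4 CPM in the first run, without overlap.

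**Figure D4:**
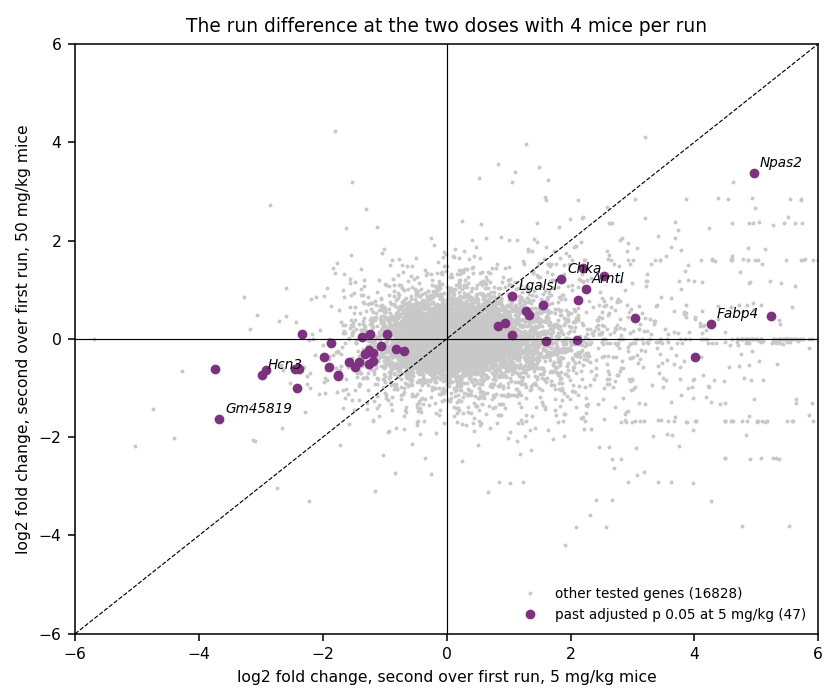
Fitted log2 fold change (second over first run) in the 5 mg/kg mice on the horizontal axis and in the 50 mg/kg mice on the vertical axis, with one point per tested gene and the 47 genes called at 5 mg/kg in purple. Of the 47, 40 share their sign, all lie nearer to 0 on the vertical axis, and 124 tested genes lie beyond the axes.

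The other doses had fewer mice. At 0 mg/kg the second run had 1 mouse and no gene passed (edgeR; 1095 at an unadjusted p under 0.05). At 0.5 mg/kg, with 2 second-run and 3 first-run mice, 5 genes were lower (0.0296%; edgeR; 3999 at an unadjusted p under 0.05, the most of any comparison here), Apcs, Jak3, Olfr1033, Ppp4r4 and Zc3h13, chosen after their values were seen. Apcs encodes an acute phase protein. Mouse 606, which had the highest summed acute phase genes of all livers, is 1 of the 3 first-run mice at this dose. Whether it bears on this call was not tested.

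Other gene groups gave few calls. None of the 24 cholesterol synthesis genes, 22 fatty acid synthesis genes, 30 PPAR-alpha targets or 19 gluconeogenic and fasting genes passed in the 26-mouse fit. Their medians were 0.17, -0.12, 0.12 and 0.00 on the log2 scale, against 0.03 over all genes. Within the 50 mg/kg mice, 26 of the 30 PPAR-alpha targets and 19 of the 19 gluconeogenic genes were negative, with medians of -0.17 and -0.32 beside 0.00 over all genes, and none passed there either. At 5 mg/kg the medians were 0.06 and -0.004 beside 0.05. At 0.5 mg/kg 29 of the 30 and 17 of the 19 were positive, with medians of 0.94 and 0.72 beside -0.03. At 0 mg/kg, with 1 second-run mouse, the medians were -0.30 and -0.56 beside -0.05. Among the fatty acid synthesis genes, Elovl6, which lengthens saturated chains, ranged over 35.0, 59.2 and 101 CPM in the second run and over 56.0, 124 and 206 CPM in the first (log2 fold change -0.92, edgeR adjusted p = 0.0632). Elovl5, which lengthens polyunsaturated chains, went the other way, at 120, 266 and 334 CPM in the second run and 110, 161 and 235 CPM in the first (0.61, edgeR adjusted p = 0.0659). Thrsp, a lipogenic regulator, had -1.03 and Pklr -0.96 (edgeR adjusted p = 0.135 and 0.205). For Hmgcs1, an early enzyme of cholesterol synthesis, the value was 0.77 (edgeR adjusted p = 0.320). Elovl3, which lengthens very long saturated chains, ranged over 26.01, 256 and 394 CPM in the second run and over 12.3, 49.2 and 265 CPM in the first (1.86, edgeR adjusted p = 0.177). The 3 fibrinogen chain genes Fga, Fgb and Fgg had 0.57, 0.47 and 0.41 (edgeR adjusted p = 0.512, 0.556 and 0.591).

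Of 24 clock outputs 1 rose (Clpx) and 1 fell (Noct), with a median of 0.11, where 0.0356% of all genes were called higher and 0.0119% lower. Of 20 glucocorticoid targets 1 rose (Zbtb16), with a median of 0.08, and Klf9, another known target, had 0.52 (edgeR adjusted p = 0.0779). None passed among 24 CAR targets, 18 PXR targets, 27 NRF2 targets, 12 AhR targets, 23 glutathione S-transferases, 13 carboxylesterases or 18 glucuronosyltransferases. Nr1i3, which encodes CAR itself, had -0.53 and Por, the electron donor of the cytochromes P450, -0.53 (edgeR adjusted p = 0.272 and 0.296). Of the exonic bases of Nr1i3, 74.9% overlap Tomm40l. Of the 18 glucuronosyltransferases 4 were positive (median -0.21), and of the 15 mitochondrially encoded transcripts 0 (median -0.24), with mt-Co2, a subunit of cytochrome oxidase, at -0.69 (edgeR adjusted p = 0.394). By dose, all 15 mitochondrial transcripts were positive at 0 mg/kg, with 1 second-run mouse (median 0.74), and all 15 negative at 0.5 mg/kg (median -0.98). At 5 and 50 mg/kg their medians were -0.53 and -0.06. The bile salt exporter Abcb11 had 0.36 and Cyp7a1, which sets the pace of bile acid production, -0.60 (edgeR adjusted p = 0.231 and 0.510). Osgin1, an NRF2 target, had 0.69, and the stress factor Atf5 0.66 (edgeR adjusted p = 0.255 and 0.224).

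**Figure D5:**
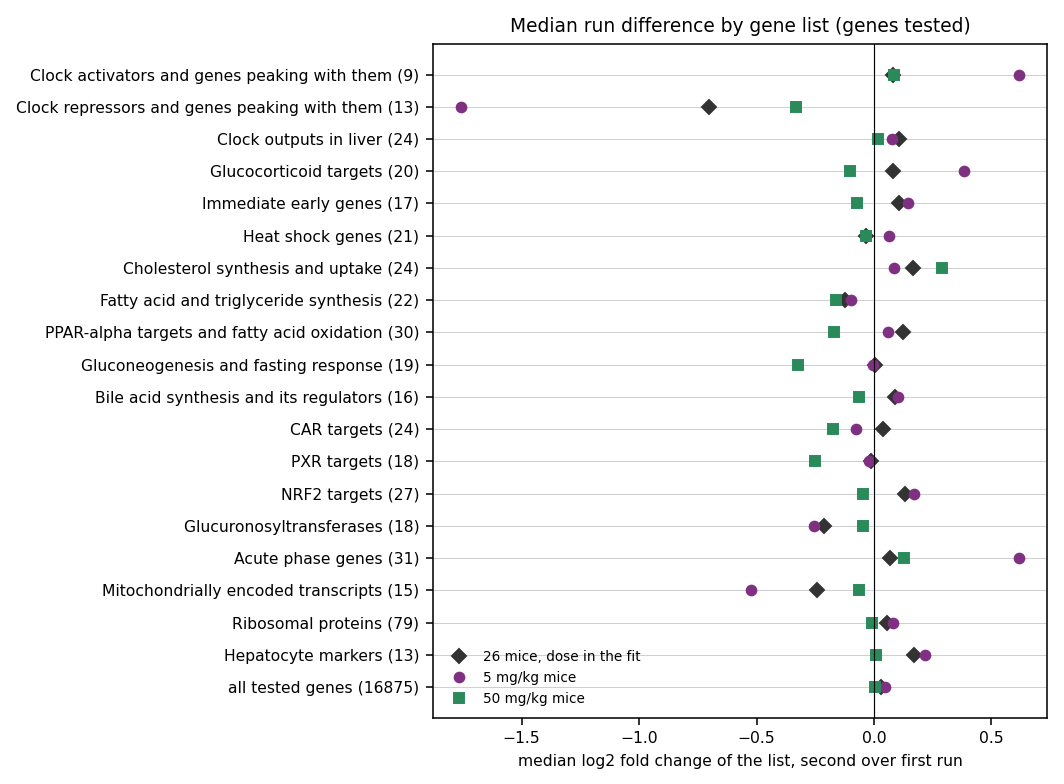
Median log2 fold change (second over first run) of 19 gene lists and of all tested genes, with the number of genes tested in brackets, in the 26-mouse fit (diamonds), the 5 mg/kg mice (circles) and the 50 mg/kg mice (squares). The repressor list lies at -0.70, -1.76 and -0.33, farther below 0 in the 26-mouse fit than the other lists drawn.

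Markers of other cell types were put through the same fit. Most adrenal, pancreas and adipocyte markers passed the filter on low counts only through mice 626 and 628, so their medians describe those libraries. In the 26-mouse fit the medians were 5.49 for 13 adrenal markers, 4.69 for 14 pancreas markers, 4.89 for 10 adipocyte markers and 0.67 for 16 lymphocyte markers, with no call in any of the 4 lists. Without mice 626 and 628, 10 adrenal, 6 pancreas, 9 adipocyte and all 16 lymphocyte markers were tested, and their medians, over these smaller sets, were -0.04, -0.50, 1.44 and 0.05. The 20 endothelial, 20 stellate and 16 macrophage markers had medians of -0.03, -0.07 and -0.00, also with no call. Of the 8 genes called over all 26 mice, none is in these lists, and their log2 fold changes without mice 626 and 628 lay between -1.20 for Noct and 3.37 for Npas2, with 5 of the 8 still past the threshold.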

How the data were processed

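Liver RNA of 26 mice was sequenced, and the authors deposited raw read counts per gene. The tools bcl2fastq and featureCounts and the build mm10 are named, per the submitters' processing notes; the aligner, annotation, strand setting and versions are not given in the sources used here. The 26 per-sample count files equal the deposited combined table, with totals of 5433074 to 9088626 reads; more deeply counted genes and libraries carry less counting error. No library repeated another of its run and dose: chi-square per degree of freedom was 11.96 to 109.7 over these 34 pairs. Pairs across runs or doses were not compared.

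Counts were fitted with edgeR 4.0.16 (R 4.3.3; TMM, robust quasi-likelihood, filterByExpr by run and dose, Benjamini-Hochberg threshold 0.05), as second over first run with dose as 4 levels, over all 26 mice, then over the 16 mice at 5 and 50 mg/kg, within each dose and as run by dose. The comparisons within a dose came from 1 fit over all 26 mice, with a mean for each run and dose. SE is the fitted value over the root of F. DESeq2 1.42.0 and limma 3.58.1 (voom), other scalings and filters, and left-out mice were the alternatives. CPM are TMM-scaled. Each fit was tested on 1 simulated set with 200 changed genes, drawn gene by gene independently with the spread that edgeR estimated. The 26-mouse fit made 185 calls, 17 of them false, and recovered 54% of 1.5-fold and 86% of 2-fold changes. That false share is above the 0.05 at which the threshold aims. The 16-mouse fit made 164 calls, 7 of them false, and recovered 40% and 78%.

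Named genes were those past the threshold in the 26-mouse fit with a mean of at least 1 CPM, the clock lists, and those with the smallest p of other lists. The members and lists were chosen with earlier results of these data known. Some genes counted in the lists and calls are not reported here by name.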

Additional observations from a re-analysis of the deposited data

Results flagged for a closer look

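Within a run and dose of 4 mice, 36 of 429 sets of values had 1 mouse far from the other 3, or 8.39%. The rule's own rate of about 1 in 20 cannot be set against this share. The genes and lists were chosen with earlier results known, and some sets held 0 in 3 of the 4 mice. No cause was tested.

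Mouse 628 (second run, 5 mg/kg) stood apart in 7 of them: its summed adrenal, pancreas and lymphocyte markers were 4419, 176.2 and 190.2 CPM, Star was 921.7 CPM, Mgarp 62.78 CPM and Ighm 70.86 CPM, and it had 22970 genes with at least 1 read. Mouse 626 stood apart for Elovl3 (26.01 CPM, low) and summed hepatocyte markers (160300 CPM, high), and mice 625 and 627 for E2f8 (49.54 CPM) and total counts (6504670, low).

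Among clock genes, Dbp was 122.6 CPM in mouse 629 (second run, 50 mg/kg), Bhlhe41 12.03 CPM in mouse 610 (first run, 5 mg/kg) and Per1 7.042 CPM in mouse 604 (first run, 0 mg/kg). Mouse 613 (first run, 50 mg/kg) stood apart for Gm45819 (6.094 CPM) and its share of counts in the 10 most abundant genes (16.95%), and mouse 610 for hemoglobin transcripts (0.02927% of counts). Hmgcs1 was 422.6 CPM in mouse 632 of the second run, and 249.3 and 137.8 CPM in mice 604 and 616 of the first. Atf5 was 179.1 CPM in mouse 616, Egr1 57.86 CPM in mouse 602, Fabp4 4.838 CPM in mouse 612 and the summed lymphocyte markers 12.03 CPM in mouse 615.

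The others are single low values where the other mice were at 0. In mouse 631 of the second run Plin1, Adipoq and Mgarp were 0.5581, 1.674 and 0.2791 CPM. In the first run Plin1 and Retn were each 0.1476 CPM in mouse 614, Adipoq was 0.2761, 0.1352 and 0.4814 CPM in mice 604, 610 and 616, Cidea 0.2281 and 0.1605 CPM in mice 609 and 616, and Mgarp 0.2281 and 0.1605 CPM in the same mice.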

How the results depend on the processing

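Over 26 mice the 8 calls became 102 by DESeq2, 19 with no filter, 102 with no dose term, 58 with dose rank as a number, 0 at an adjusted p of 0.01, 24 without the 0 mg/kg mice and 13 with the filter by dose, which was chosen after seeing the data. The count stayed at 7 to 12 under limma-voom, other scalings, the filter on 10 reads, the filter by run (also added later), and without mice 626 and 628 or 605 and 606. Npas2 was removed before testing by the filter on 10 reads and by the filter by run, and the other 7 stayed called there. None of the 8 changed sign in any alternative that tested it. Over the 16 mice the 16 calls became 114 by DESeq2, 4 by voom, 2 at an adjusted p of 0.01, 6 without mice 626 and 628 and, added after seeing the data, 9 on the genes of the 26-mouse fit. Within 5 mg/kg the 47 calls became 185 by DESeq2 and 1 without mice 626 and 628, and within 50 mg/kg DESeq2 called 1. Leaving out each mouse gave 1 to 51 calls over 26 mice, 3 to 87 over 16, 8 to 340 within 5 mg/kg, 0 within 50 mg/kg and 0 to 2 for run by dose. The cause was not tested. Without mice 626 and 628 the difference in genes with at least 1 read was -156.4 (74.95 with them) and in ribosomal share -0.0161 percentage points (0.00671 with them). Rora (log2 fold change 0.06) was -0.0179 with no dose term, -0.00371 without the 0 mg/kg mice and between -0.0233 and 0.105 with 1 mouse left out. E2f8 (0.08) was -0.0224 by voom, -0.0919 with no dose term, -0.0222 with dose rank, -0.301 without the 0 mg/kg mice and between -0.303 and 0.234 with 1 mouse left out. No paired analysis was possible because the runs share no replicate numbers. The 0 mg/kg group of the second run is 1 mouse, and genes such as Npas2 rest on few reads.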
